A study of Mus musculus with 6 samples.

Results

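The genes described here are the nuclear genes of respiratory complex I. They were taken as every row of the deposited count table whose Ensembl identifier belongs, in GENCODE release M21 on the mm10 build, to a protein-coding gene with a symbol that begins with Nduf. The rule found 46 of the 22579 genes in the table. By role, 7 encode core subunits, 29 encode accessory subunits and 8 encode assembly factors, which makes 44 complex I genes. The other 2 are Ndufa4, whose product is now counted as a subunit of complex IV, and Ndufa4l2, its paralog. The mouse locus of the accessory subunit NDUFB1 falls outside the rule because this annotation types it as a long non-coding RNA named Ndufb1-ps.

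The study sequenced spermatogonia, the mitotic germ cells of the testis, that carry the surface protein THY1, at day 4. There were 3 control libraries and 3 libraries from Ddx20 knockout mice, whose columns are named cKO, and the controls were littermates. Each library was made by SMART-seq2 from about 1000 cells, with reverse transcription from an oligo-dT primer. DDX20 is a DEAD-box RNA helicase of the SMN complex, and the labels give neither the allele, nor a Cre driver, nor which animal or litter each library came from, so the p-values measure the spread between these libraries, which may be technical.

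Complex I, or NADH:ubiquinone oxidoreductase, is the entry point of the respiratory chain. Its peripheral arm projects into the mitochondrial matrix, takes electrons from NADH onto a flavin and passes them along iron-sulfur clusters to ubiquinone, and its membrane arm pumps protons across the inner membrane. The catalytic core is encoded partly in the nucleus and partly in mitochondrial DNA, accessory subunits surround it, and assembly factors build the modules without staying in the finished enzyme. Undifferentiated spermatogonia are generally described as leaning on glycolysis, with oxidative phosphorylation gaining weight as they differentiate.

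RefSeq promoter sequences on GRCm38.p6, 250 bases before to 50 bases after the gene start, were matched for 39 of the 44 complex I genes. Both strands were searched for 4 short motifs of factors known for respiratory-chain promoters. The NRF1 motif GCGCANGCG occurred in 10 of the 39 promoters (25.6%) and in 7.03% of all 27025 mouse promoters in the same collection. The YY1 motif AAGATGGCG occurred in 6 of 39 (15.4%), against 1.64% of all promoters. The SP1 motif GGGCGG occurred in 21 of 39 (53.8%) against 38.2%, and the ETS motif CCGGAAGT in 1 of 39 (2.56%) against 4.31%. A match is a description of the letters and not a bound site, and no relation between a motif and the expression values was tested.

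The 10 promoters with the NRF1 motif were those of Ndufa5, Ndufa6, Ndufa8, Ndufa11, Ndufb4, Ndufb10, Ndufs5, Ndufs6, Ndufaf4 and Ndufaf5, and none of the 5 core genes matched was among them. The YY1 motif was found in the promoter of Ndufs7, a core gene, and in those of Ndufa9, Ndufs4, Ndufs6, Ndufc1 and Ndufaf8. Parts of 3 NRF1-bearing promoters are shown 5′ to 3′ on the gene's strand, for 1 assembly factor and 2 membrane-arm subunits. Capitals mark the motif, or 2 overlapping copies of it on opposite strands. They lie at chr4:24897933-24898082 on the plus strand for Ndufaf4, chr17:56717686-56717761 on the plus strand for Ndufa11 and chr4:123718203-123718336 on the minus strand for Ndufs5.
Ndufaf4: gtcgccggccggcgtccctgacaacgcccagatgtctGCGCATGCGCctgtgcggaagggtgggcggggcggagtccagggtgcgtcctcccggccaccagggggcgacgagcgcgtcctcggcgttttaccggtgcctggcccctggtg
Ndufa11: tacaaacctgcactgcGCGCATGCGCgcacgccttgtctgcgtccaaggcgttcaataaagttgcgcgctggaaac
Ndufs5: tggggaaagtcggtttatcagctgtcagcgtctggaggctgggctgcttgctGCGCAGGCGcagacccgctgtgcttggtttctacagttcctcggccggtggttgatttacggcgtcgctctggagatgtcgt
All 3 of these genes had their lowest level of the 6 libraries in control 1, a pattern that most of the complex I genes shared and that is taken up under the sums by library.

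The libraries held 8428871 to 11893287 counted reads in controls and 11656130 to 12497967 in knockouts. Ddx20 was lower in every knockout library, with 47 ± 14.8 CPM for the controls against 12.6 ± 2.35 CPM (SD, n = 3 each; log2 fold change −1.89 ± 0.26 SE, adjusted p = 0.0118, edgeR quasi-likelihood test with Benjamini-Hochberg adjustment over all genes). Its adjusted p was 0.0554 and 0.062 without knockout 1 and 3, with log2 fold changes of −1.85 and −1.79. CPM here means reads of a gene scaled to the TMM-adjusted library size. Knockout 1 and knockout 2 resembled each other far more than any other pair of libraries, with a chi-square of 1.779 per gene and degree of freedom where 1 is sampling noise and the other pairs gave 11.96 to 104.2, so results are also given with these libraries counted as 1. All 12 markers of undifferentiated spermatogonia had reads in every library, with a summed level of 3978 to 4761 CPM in controls and 4283 to 4676 in knockouts, most of it from Dazl (2767 and 3132 CPM on average). Of the 12, 4 fell (Gfra1, Ret, Etv5 and Itga6, with log2 fold changes of −0.69, −0.67, −0.65 and −0.99), where 2.80% of all genes were called lower. None rose, 9 were negative, and the median was −0.56. All 3 knockouts lay below all controls for 7 of the 12 and above for 1, beside 15.8% and 16.8% of all genes. Of 6 markers of differentiating spermatogonia, 2 were called lower, Kit at −1.02 and Stra8 at −1.22, and 0 higher. The log2 fold change was negative for 5 of these 6 and positive for 1, with a median of −0.12. Markers of other testicular cell types summed to 919 to 1913 CPM in controls and 2354 to 3096 in knockouts. The largest part came from the macrophage marker Lyz2, at 657 and 1384 CPM on average, which was not called (adjusted p = 0.0997, edgeR). Of the 42 tested, 6 passed the test and all 6 were higher, where 2.03% of all genes were called higher. They were Inha and Cldn11 of Sertoli cells, Acta2 and Actg2 of myoid cells, and Lck and Cd3g of T lymphocytes. Of the 42, 32 log2 fold changes were positive and 10 negative, with a median of 0.50. The negative ones included Sox9 of Sertoli cells (−0.68), Cd8a of T lymphocytes (−0.74) and Nr5a1 of Leydig cells (−0.93). For 16 of the 42 all knockouts lay above all controls and for 1 below, beside 16.8% and 15.8% of all genes. The part of these marker lists in the results on complex I was not tested. In bulk libraries, fewer cells of a type and less RNA per cell cannot be told apart.

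Of the 46 Nduf genes, 1 passed the test at an adjusted p under 0.05. Ndufs1, a core subunit, fell in the knockouts, none rose, and 45 were not called. All 46 had passed the filter on low counts. Over all 14766 genes tested, 4.83% were called, 2.03% as higher and 2.80% as lower. At an unadjusted p under 0.05, 3 of the 46 were higher (Ndufa4l2, Ndufb11 and Ndufaf6) and 1 was lower, where all genes gave 11.3% and 12.8%. With DESeq2 2 members were called higher (Ndufb11 and Ndufa4l2) and 1 lower, and with limma-voom 3 higher (Ndufa9, Ndufb11 and Ndufa4l2) and 1 lower, Ndufs1 in both. Over all genes DESeq2 called 5.38% higher and 5.74% lower, and limma-voom 7.38% and 11.3%.

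Fold changes of the members were small and their signs mixed. The log2 fold change was positive for 31 and negative for 15, with a median of 0.14 beside 0.01 over all genes tested. The signs turned to 17 positive and 29 negative, with a median of −0.10, when libraries were scaled by their totals alone, a scaling that moved the median of all genes to −0.26. Standard errors ran from 0.15 to 0.46 with a median of 0.19, beside 0.32 over all genes. The 3 knockout libraries lay above all 3 controls for 12 members and below all 3 for 1, and the other 33 overlapped. Over all genes these arrangements made up 16.8% and 15.8%.

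**Figure D1:**
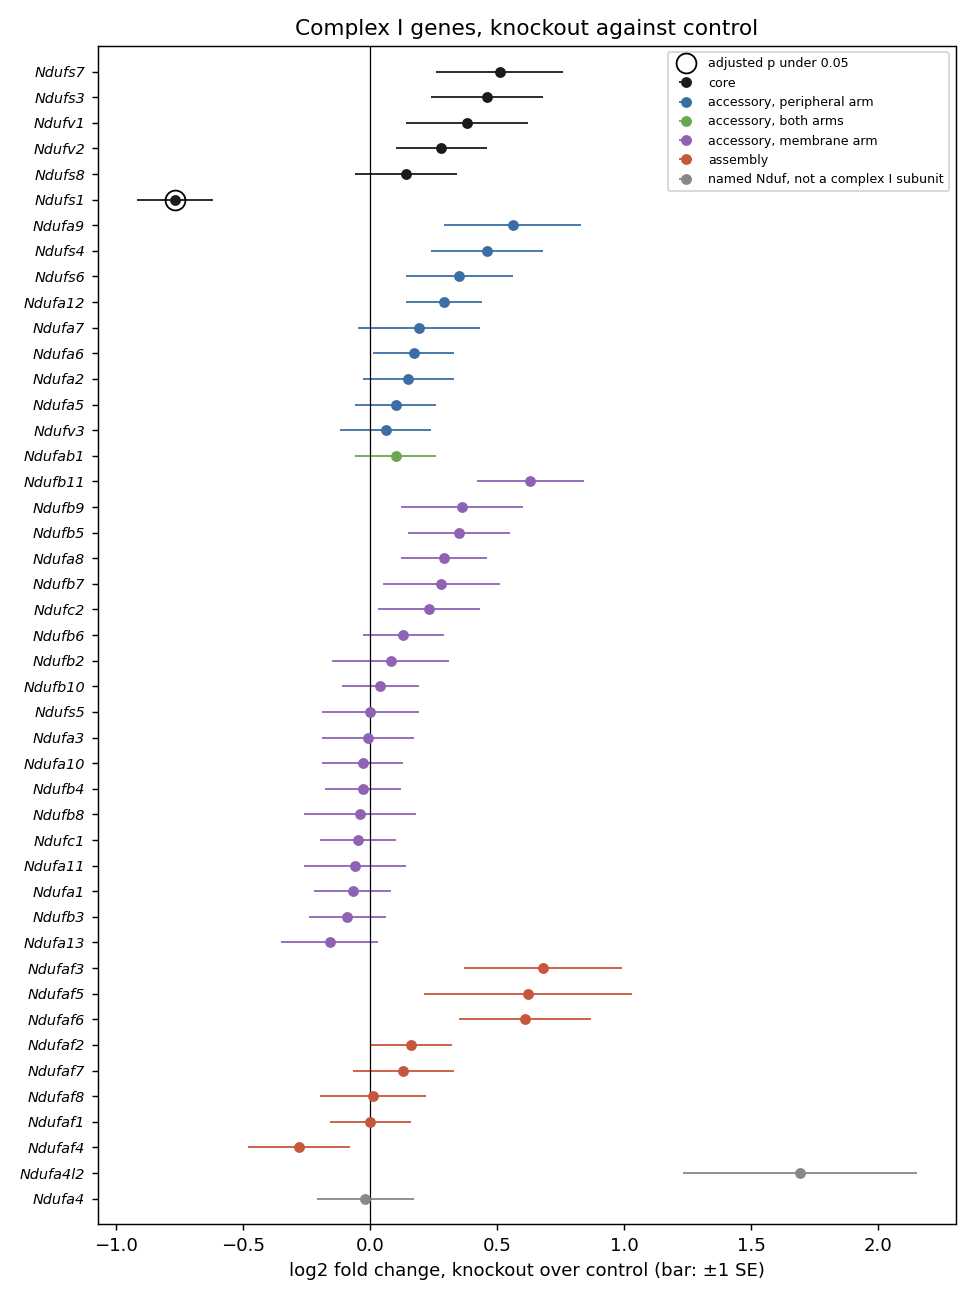
Log2 fold change, knockout over control, of 45 Nduf genes on the x axis, with 1 gene per line in classes by role. Points are edgeR estimates and bars ± 1 SE, and the open circle marks an adjusted p under 0.05. Ndufs1 at −0.77 is the one circled gene, and Ndufa4l2 at 1.69 is farthest from 0.

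The 7 core genes encode the NADH- and ubiquinone-reducing machinery of the peripheral arm. Their log2 fold changes ran from −0.77 to 0.51 with a median of 0.28, and the median was 0.03 when libraries were scaled by their totals alone. Ndufs1 (ENSMUSG00000025968) encodes the largest core subunit, which carries iron-sulfur clusters next to the NADH site. It lies at chr1:63143596-63176833 on the minus strand, and its annotated exons cover 8086 bp. The controls had 1373, 1256 and 1462 reads of it and the knockouts 725, 740 and 858, which came to 131, 119 and 112 CPM against 67.4, 67.1 and 77.2 CPM. Every knockout library was below every control. Controls averaged 121 ± 9.64 CPM and knockouts 70.6 ± 5.76 CPM (SD, n = 3 each), 1.71-fold lower in the knockouts, with a log2 fold change of −0.77 ± 0.15 (SE) and an adjusted p of 0.0224 in edgeR's quasi-likelihood test.

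The call on Ndufs1 rested on several libraries. It kept its sign in all 18 alternative fits, with log2 fold changes of −1.05 to −0.62, and was called in 13 of them. The adjusted p was 0.0567 without control 2, 0.163, 0.16 and 0.0704 without knockout 1, 2 and 3, and 0.16 with knockouts 1 and 2 counted as 1 library, a fit in which edgeR called 1 gene of 15406. DESeq2 and limma-voom on the same 5 libraries gave 0.0251 and 0.0388, calling 469 and 408 genes in all. The exons share 489 bp with Ino80dos, a non-coding gene on the opposite strand, and 9 bp with Eef1b2. Ino80dos had 25, 21 and 39 reads among controls, 11, 14 and 12 among knockouts, and was not called (adjusted p = 0.33, edgeR). SMART-seq2 does not mark strand, so reads in the shared stretch cannot be told apart.

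The other core genes of the NADH-oxidising module were higher on average in the knockouts without passing the test. Ndufv1, the subunit that binds NADH and the flavin (chr19:4007384-4012806, minus strand), measured 79.6, 143 and 171 CPM in controls and 166, 160.0 and 188 CPM in knockouts. Ndufv2, an iron-sulfur protein (chr17:66078638-66101559, minus strand), measured 207, 307 and 305 CPM in controls and 329.9, 331 and 330.0 CPM in knockouts. Control 1 was far below the other 5 libraries for both genes. The groups overlapped for Ndufv1 (log2 fold change 0.38 ± 0.24, adjusted p = 0.372) and not for Ndufv2 (0.28 ± 0.18, adjusted p = 0.401, edgeR). So the 3 core genes that sit side by side at the NADH end of the enzyme differed in sign, Ndufs1 lower and called, Ndufv1 and Ndufv2 positive and not called.

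In the ubiquinone-reducing module, Ndufs7, which carries the last iron-sulfur cluster before ubiquinone (chr10:80249121-80256794, plus strand), measured 168, 331 and 347 CPM in controls and 384, 372 and 446 CPM in knockouts. Ndufs3 (chr2:90894634-90904827, minus strand), on which assembly of this module begins, measured 108, 179.9 and 207 CPM in controls and 230.2, 215 and 234 CPM in knockouts. The groups did not overlap for either gene, but in both the gap between control 1 and the other controls exceeded the gap between those controls and the lowest knockout. The log2 fold change was 0.51 ± 0.25 for Ndufs7 (adjusted p = 0.25) and 0.46 ± 0.22 for Ndufs3 (adjusted p = 0.234, edgeR).

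Ndufs8, the partner of Ndufs7 in holding iron-sulfur clusters (chr19:3908863-3912774, minus strand), measured 409.7, 664 and 603 CPM in controls and 613, 612 and 619 CPM in knockouts. Its log2 fold change was 0.14 ± 0.20 (adjusted p = 0.73, edgeR), and it turned to −0.05 without control 1. The groups overlapped, with control 1 the one library that stood apart.

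**Figure D2:**
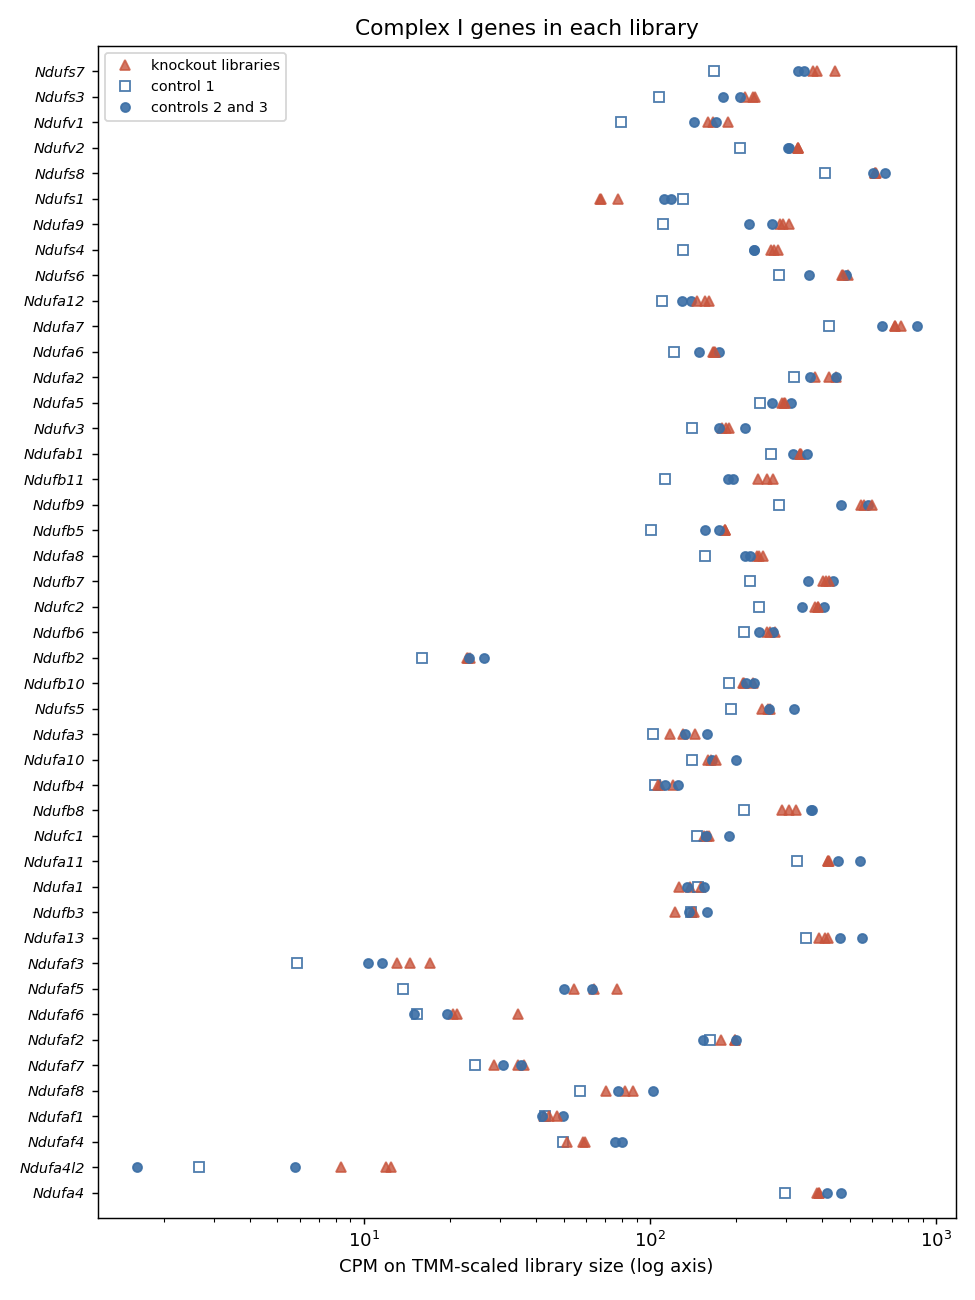
CPM on the TMM-scaled library size (x axis, log scale) of 45 Nduf genes in each of the 6 libraries, with 1 gene per line. Open squares are control 1, filled circles controls 2 and 3, and triangles the knockouts. Control 1 is the lowest library for 38 of the genes shown, and Ndufs1 is the one gene with all knockouts below all controls.

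Accessory subunits stabilise the core and help its assembly. None of the 29 was called (edgeR). At an unadjusted p under 0.05, 1 was higher and none lower, where all genes gave 11.3% and 12.8%. DESeq2 called 1 higher and limma-voom 2, beside 5.38% and 7.38% of all genes. Adjusted p-values ran from 0.102 to 0.993. The knockouts lay above all controls for 6 of the 29 and below all controls for none, beside 16.8% and 15.8% of all genes. The median log2 fold change was 0.10, with 19 positive and 10 negative, and it was −0.15 with 9 positive and 20 negative when libraries were scaled by their totals alone.

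The accessory genes of the peripheral arm were all positive, 9 of 9, from 0.06 to 0.56 with a median of 0.19. Of the 9, 7 stayed positive without control 1, with a median of 0.05, 4 with scaling by totals alone (median −0.04), and 3 with the trend over exon length and GC content removed (median −0.03). Ndufa9, a nucleotide-binding subunit beside the ubiquinone site, measured 111, 223 and 267 CPM in controls and 285, 292 and 307 CPM in knockouts (0.56 ± 0.27, adjusted p = 0.234, edgeR). Ndufs4, whose loss in mice gives a model of Leigh syndrome, measured 131, 232 and 232 CPM in controls and 281, 273 and 266 CPM in knockouts (0.46 ± 0.22, adjusted p = 0.223, edgeR). The groups did not overlap in either gene, and control 1 stood apart from the rest in both. Ndufa9 was called by limma-voom.

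Ndufa12, a paralog of the assembly factor Ndufaf2, measured 110.2, 139.5 and 130.2 CPM in controls and 156, 161 and 146 CPM in knockouts (0.29 ± 0.15, adjusted p = 0.278, edgeR). Ndufs6, which binds zinc and joins late in assembly, measured 283, 484 and 359.8 CPM in controls and 470.5, 494 and 475 CPM in knockouts (0.35 ± 0.21, adjusted p = 0.327). Ndufa6, which anchors an acyl carrier protein to this arm, measured 122, 175 and 149 CPM in controls and 168, 166 and 169.7 CPM in knockouts (0.17, adjusted p = 0.565). The groups were separate for Ndufa12 by a narrow margin and overlapped for the other two. Ndufa2, a small thioredoxin-like subunit, Ndufa7, Ndufa5 and Ndufv3 gave 0.15, 0.19, 0.10 and 0.06, with adjusted p-values of 0.669, 0.683, 0.759 and 0.885. Ndufab1, the mitochondrial acyl carrier protein, which sits in both arms, gave 0.10 (adjusted p = 0.76).

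The 19 accessory genes of the membrane arm were centred on 0 with TMM scaling of all 6 libraries. Their median was −0.09 without control 1 (7 positive, 12 negative) and −0.24 with scaling by totals alone (5 and 14). With the trend over exon length and GC content removed it was −0.19 (5 and 14). With TMM scaling of all 6 libraries, 9 were positive and 10 negative, with a median of −0.00 and a range of −0.16 to 0.63. Ndufb11 (ENSMUSG00000031059), an X-linked subunit of the proton-pumping arm at chrX:20615326-20617619 on the minus strand, was at the top of that range. It measured 113, 195 and 188 CPM in controls and 258, 269.9 and 239 CPM in knockouts, all 3 knockouts above all controls. Controls averaged 165 ± 45.4 CPM and knockouts 256 ± 15.4 CPM (SD, n = 3 each), with a log2 fold change of 0.63 ± 0.21 (SE) and an adjusted p of 0.102 in edgeR. The adjusted p was 0.0312 in DESeq2 and 0.00826 in limma-voom, and over the alternatives it ran from 0.00826 to 0.316. With the trend over exon length and GC content removed its log2 fold change was 0.31. Its exons share 117 bp with Rbm10 on the opposite strand.

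Ndufb5, Ndufa8, Ndufb9 and Ndufb7, all subunits of the membrane arm, followed Ndufb11 in order of p. Ndufb5 measured 101, 156 and 175 CPM in controls and 184, 183 and 183 CPM in knockouts (0.35 ± 0.20, adjusted p = 0.32, edgeR), and Ndufa8 measured 156, 215 and 224 CPM against 241, 238 and 248 CPM (0.29 ± 0.17, adjusted p = 0.339). Ndufb9 measured 283, 578 and 467 CPM against 549.8, 559.9 and 596 CPM (0.36 ± 0.24, adjusted p = 0.396), and Ndufb7 measured 224, 437 and 357 CPM against 402, 412 and 422 CPM (0.28 ± 0.23, adjusted p = 0.492). The knockouts lay close together, control 1 was lowest in all 4, and the groups overlapped for Ndufb9 and Ndufb7. The exons of Ndufb5 share 616 bp with Mrpl47 on the opposite strand, and those of Ndufb9 share 201 bp with Gm49356 on the same strand. The part of shared reads in these values was not tested. At the other end, Ndufa13, also known as the cell-death regulator GRIM-19, had the lowest log2 fold change of the arm (−0.16 ± 0.19, adjusted p = 0.65). It measured 352, 554 and 462 CPM against 411, 419 and 391 CPM. The X-linked Ndufa1, which is small and needed for joining the membrane arm, measured 147, 155 and 135 CPM against 138, 151 and 127 CPM (−0.07 ± 0.15, adjusted p = 0.828). The non-coding-typed Ndufb1-ps had 610, 1155 and 1127 control reads and 1154, 1201 and 992 knockout reads (0.26, adjusted p = 0.493).

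Of the 8 assembly factors none was called (edgeR, DESeq2 or limma-voom). At an unadjusted p under 0.05 in edgeR 1 was higher, where all genes gave 11.3%. The median log2 fold change was 0.15 with a range of −0.28 to 0.68. The median was −0.10 when libraries were scaled by their totals alone. Ndufaf3, which works on the early ubiquinone-reducing module, measured 5.83, 11.6 and 10.4 CPM in controls and 17.1, 14.5 and 13.1 CPM in knockouts, a low level of 61 to 184 reads a library. Ndufaf6, another early factor, measured 15.4, 15 and 19.6 CPM in controls and 20.5, 21.2 and 34.6 CPM in knockouts. For both, all knockouts lay above all controls, but the top knockout of Ndufaf6 stood far from its other two. The log2 fold changes were 0.68 ± 0.31 for Ndufaf3 (adjusted p = 0.211) and 0.61 ± 0.26 for Ndufaf6 (adjusted p = 0.184, edgeR). The exons of Ndufaf3 share 48 bp with Impdh2 on the opposite strand. Impdh2 had 2068, 2519 and 3468 control reads and 3825, 3708 and 3929 knockout reads (0.57, adjusted p = 0.0717, edgeR). Reads in the shared stretch cannot be told apart, and their part in the Ndufaf3 values was not tested.

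Ndufaf5, which modifies Ndufs7, measured 13.7, 50 and 62.9 CPM in controls and 64, 54.4 and 77.1 CPM in knockouts (0.62 ± 0.41, adjusted p = 0.393, edgeR). Leaving out 1 library at a time moved this value from 0.20 to 1.03, and control 1 was again the library that stood apart. Ndufaf4, which acts with Ndufaf3, had the lowest log2 fold change of the class (−0.28 ± 0.20, adjusted p = 0.424). It measured 49.8, 75.5 and 80 CPM in controls and 58.6, 59.5 and 51.2 CPM in knockouts. There control 1 lay below the knockouts and the other two controls above them. Ndufaf2 measured 162, 199.8 and 153 CPM against 199, 198 and 178 CPM (0.16, adjusted p = 0.588), and Ndufaf7, Ndufaf8 and Ndufaf1 gave 0.13, 0.01 and −0.00.

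The 2 Nduf genes outside complex I differed from each other in level and in fold change. Ndufa4 measured 297, 467 and 417 CPM in controls and 389.9, 385 and 389.7 CPM in knockouts (−0.02 ± 0.19, adjusted p = 0.965, edgeR). Ndufa4l2, a hypoxia-inducible paralog at chr10:127514967-127517154 on the plus strand, had 28, 17 and 75 control reads and 134, 132 and 93 knockout reads. These came to 2.67, 1.61 and 5.75 CPM against 12.5, 12 and 8.37 CPM, with every knockout above every control. Its log2 fold change was 1.69 ± 0.46 with an adjusted p of 0.0619 in edgeR, and over the alternatives the value ran from 1.34 to 2.34 and the adjusted p from 0.00803 to 0.239. Without control 3, its highest control, the adjusted p was 0.0299 and the log2 fold change 2.34.

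Summed by class, the complex I genes showed one low control and an even set of knockouts. The core sum was 1202, 1818 and 1827 CPM in controls and 1867, 1827 and 1974 CPM in knockouts. The accessory sum was 5551, 8649 and 7599 CPM against 8091, 8198 and 8068 CPM. The assembly sum was 372, 539.9 and 476 CPM against 525, 508 and 500.4 CPM. In the accessory and assembly classes all knockouts lay between control 1 and control 2, and in the core class they lay at or above the highest controls. Over all 46 genes the controls summed to 9742 ± 2088 CPM and the knockouts to 10919 ± 29.3 CPM (SD, n = 3 each). The small spread of the knockouts includes knockouts 1 and 2, the pair that resembled each other.

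**Figure D3:**
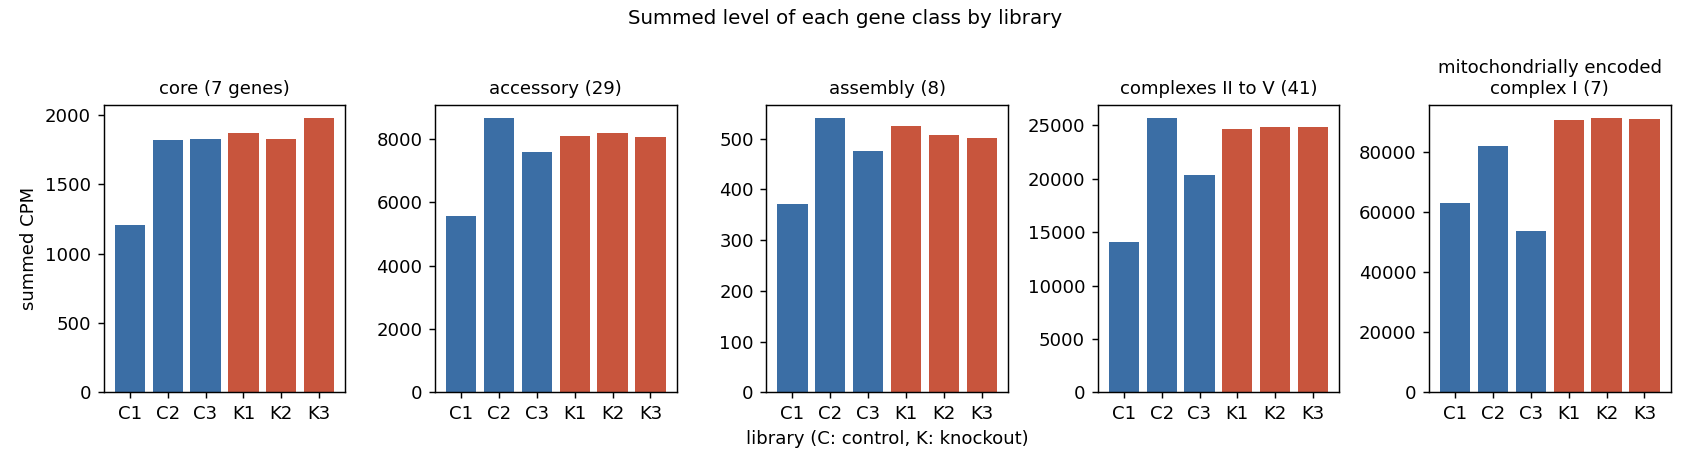
Summed CPM (y axis from 0, a separate scale in each panel) of core, accessory and assembly genes, of complexes II to V and of mitochondrially encoded complex I genes, with 1 bar for each library. The control 1 bar is the lowest in the first 4 panels, at 1202 CPM for the core and 5551 CPM for the accessory genes, while the 3 knockout bars are nearly level.

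Control 1 was the lowest of the 6 libraries for 5 of 7 core, 27 of 29 accessory and 5 of 8 assembly genes. Together with Ndufa4 this was 38 of 46 members (82.6%), beside 30.1% of all genes tested and 37 of 41 subunit genes of complexes II to V (90.2%). It was also the library with the fewest reads and the largest TMM factor (1.245 against 0.8909 to 1.099). Without control 1 the median log2 fold change was 0.11 for core, −0.01 for accessory and 0.06 for assembly genes, and 0.01 over all members, of which 24 were then positive and 22 negative. Ndufs1 stayed called without it. Which property of control 1 goes with the low values was not tested.

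Complexes II to V carry electrons to oxygen and make ATP, and their nuclear genes were measured alongside. Of their 41 tested genes 2 rose, where 2.03% of all genes were called higher. The median was 0.32, or 0.32, 0.24, 0.33 and 0.34 for complexes II, III, IV and V. Without control 1 these 4 medians were 0.02, 0.04, 0.12 and 0.17. Uqcrfs1, the Rieske iron-sulfur protein of complex III, measured 127, 119 and 141 CPM in controls and 218, 212 and 209 CPM in knockouts (0.72 ± 0.14, adjusted p = 0.0258, edgeR). Cox7a2l, which links complexes III and IV into supercomplexes, measured 193, 310.0 and 306 CPM against 490.4, 463 and 568 CPM (0.91 ± 0.21, adjusted p = 0.0383). Uqcrfs1 had even controls, with control 1 between the others. Both stayed called without control 1. The adjusted p of Uqcrfs1 was 0.0621 without control 2 and 0.0783 to 0.163 without a knockout, and that of Cox7a2l was 0.0561 to 0.161 without any library but control 1. With the trend over exon length and GC content removed Uqcrfs1 was at 0.38 and not called (adjusted p = 0.161), and Cox7a2l was at 0.62 (adjusted p = 0.0499).

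The 7 complex I genes of mitochondrial DNA encode the proton-pumping core of the membrane arm. Of these 2 were called higher, mt-Nd5 and mt-Nd4l, where 2.03% of all genes were called higher. For mt-Nd5 the levels were 3490.0, 4034 and 3658 CPM in controls and 6725, 6599 and 7380.2 CPM in knockouts (0.89 ± 0.21, adjusted p = 0.0414, edgeR), and the groups did not overlap. For mt-Nd4l, a short gene, they were 4.2, 6.26 and 4.91 CPM against 12.2, 18.7 and 58.2 CPM (2.53 ± 0.52, adjusted p = 0.0278), and knockout 3 was far above the others. These came from 44, 66 and 64 control reads and 131, 206 and 646 knockout reads. Its annotated stretch, chrM:9877-10173, overlaps that of mt-Nd4 at chrM:10167-11544 on the same strand. The level of mt-Nd4 was far higher, 12754 CPM on average in controls and 13681 CPM in knockouts. How reads of the shared bases were counted is not known, and their part in the mt-Nd4l values was not tested. The adjusted p of mt-Nd5 was 0.0962 without control 3 and 0.132 to 0.222 without a knockout. That of mt-Nd4l was 0.0472 without knockout 1 and 0.0617 to 0.0792 without any other library, and without knockout 3 its log2 fold change was 1.59. With the trend over exon length and GC content removed mt-Nd5 was at 0.48 and not called (adjusted p = 0.149), and mt-Nd4l was at 2.30 (adjusted p = 0.043). The other 5 ran from mt-Nd2 at −0.42 and mt-Nd6 at −0.40 over mt-Nd4 at 0.10 to mt-Nd1 and mt-Nd3 at 0.72, and none of them was called. Reads of all mitochondrially encoded genes made up 14% to 16.9% of the control libraries and 19.8% to 20.1% of the knockouts, and oligo-dT priming captures these RNAs unevenly.

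None of the 10 tested assembly factors that are not named Nduf was called by edgeR. Of the 10, 2 were lower at an unadjusted p under 0.05, where all genes gave 12.8%. DESeq2 and limma-voom each called 1 lower, beside 5.74% and 11.3% of all genes. Timmdc1, an assembly factor of the membrane arm, measured 30.4, 36.8 and 30.4 CPM in controls and 20, 16.1 and 23.3 CPM in knockouts (−0.72 ± 0.21, adjusted p = 0.077). Tmem186, another, gave −0.79 (adjusted p = 0.201), and Dmac2 gave 0.42 (adjusted p = 0.279). Of 12 regulators of mitochondrial genes none was called by edgeR or DESeq2, and limma-voom called 3 lower. At an unadjusted p under 0.05 in edgeR 3 were lower, where all genes gave 12.8%. These were the coactivator Pprc1 (−0.55, adjusted p = 0.11), the transcription factor Yy1 (−0.79, adjusted p = 0.118) and the mitochondrial DNA polymerase Polg (−0.60, adjusted p = 0.129, edgeR). Yy1 measured 68.2, 35.8 and 39.7 CPM in controls and 24.2, 22.9 and 36.1 CPM in knockouts. Its groups overlapped, with control 1 far above the other controls, while those of Pprc1 and Polg did not overlap. The median over the regulators was −0.28.

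Most complex I transcripts are short, and the fold changes of all genes varied with exon length and GC content. The median annotated exon length was 1754 bp for the 44 complex I genes and 4219 bp for all genes tested. Removing that trend moved the median log2 fold change of the 22 shorter genes from 0.12 to −0.21, with 14 positive and 8 negative turning into 5 and 17. In the 22 longer genes it moved from 0.17 to 0.09, with 13 of 22 still positive. By class the medians became 0.05 for core, −0.08 for accessory and 0.09 for assembly genes. Ndufs1, the longest member, was at −0.62 with an adjusted p of 0.0326 (edgeR), and 2 of the 46 Nduf genes were higher and 12 lower at an unadjusted p under 0.05, where all genes gave 10.2% and 12.6% in the same fit. The direction of the small fold changes therefore depended on this choice, and that of Ndufs1 did not.

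**Figure D4:**
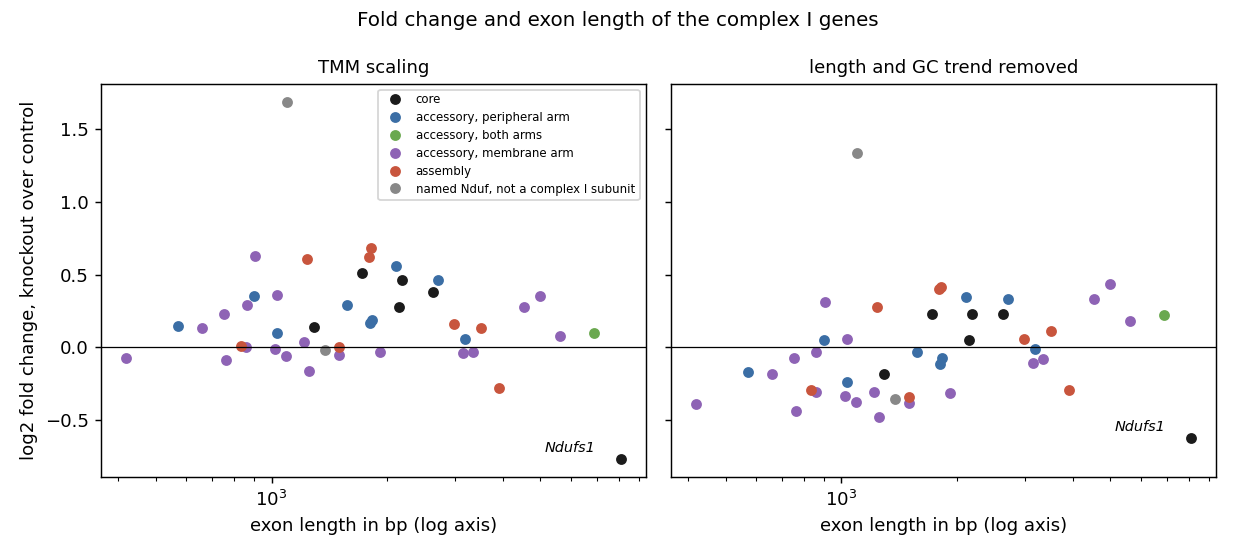
Log2 fold change, knockout over control (y axis), against annotated exon length in bp (x axis, log scale) for 45 Nduf genes, coloured by role, with TMM scaling on the left and with the trend over exon length and GC content removed on the right. On the right most of the shorter genes lie below 0, and Ndufs1 is the lowest point in both panels.

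Levels per length, in CPM per kb of annotated exon and averaged over the 6 libraries, spanned a wide range across the Nduf genes. Ndufa2 was highest at 694, followed by Ndufb9 at 490.3 and Ndufs6 at 476. Ndufb9 and Ndufs6 did not differ beyond their spread, with control values of 429 ± 144 and 418 ± 113 CPM per kb and knockout values of 551 ± 23.5 and 534 ± 13.9 (SD, n = 3 each). Ndufb2, a membrane-arm subunit, was lowest at 4.01, below Ndufa4l2 at 6.52 and the assembly factor Ndufaf3 at 6.66. Core genes ran from 11.8 for Ndufs1 to 454 for Ndufs8, and assembly factors from 6.66 to 95.1 for Ndufaf8. Exon length sets part of this order. With the longest annotated transcript as the length, Ndufs1 stood at 36 and Ndufa7 was first at 1073 in place of 376. Ndufb2 stayed last at 5.16, with 16, 26.4 and 23.4 CPM in controls and 23.5, 22.9 and 23.1 CPM in knockouts. Its exons share 146 bp with Braf and 145 bp with Gm42420, so its level depends on how shared reads were counted. The same holds for Ndufb9, whose exons share 201 bp with Gm49356.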

How the data were processed

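Gene counts of 6 SMART-seq2 libraries of THY1-positive mouse spermatogonia were used as deposited, as whole reads per gene. The submitters' processing notes name the mm10 build and list edgeR, DESeq2, StringTie 2.1.7, STAR 2.7.5c and Trimmomatic 0.39 without saying what each did. The deposited mean signal per gene was read for a check only. The gene annotation, read counter, strand setting and any filter are not stated there. SMART-seq2 has no molecular identifiers, so PCR copies count as reads.

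Counts were tested with edgeR 4.0.16 in R 4.3.3 (TMM, filterByExpr, robust quasi-likelihood F test, genotype only, two-sided), with Benjamini-Hochberg adjustment over all 14766 genes and calls at 0.05. The script was tested on simulated counts. Alternatives used DESeq2 1.42.0 and limma 3.58.1, and 1 removed from each library its lowess trend (span 0.3) over exon length and GC content. Named genes were core and called members (1 core gene is counted in the classes but not reported here by name or plotted singly), the 5 smallest p-values in each other class, the 3 extremes of level per length and up to 3 per other list. Others (such as Ndufa1, Ndufa13, Ndufa4 and Ndufb1-ps) were added after their values were seen. Members and lists were chosen with earlier results of these data known. Same-numbered libraries did not deviate together (correlations −0.00423, 0.00884 and 0.00648).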

Additional observations from a re-analysis of the deposited data

How the results depend on the processing

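Nduf genes called higher, 0 in edgeR, numbered 1 with no filter on low counts, 2 with DESeq2, 3 with limma-voom and 0 to 1 when 1 library was left out, and the 1 called lower became 0 with knockouts 1 and 2 as 1 library and 0 to 1 with 1 library left out. For the 41 genes of complexes II to V the 2 called higher became 1 with library size alone or once the trend over exon length and GC was removed. The number was 0 with knockouts 1 and 2 as 1 library, 4 with no filter and 0 to 3 with 1 library left out. It was 7 with DESeq2 and 8 with limma-voom, which called 5.38% and 7.38% of all genes higher. For mitochondrially encoded complex I genes the 2 became 1 with the trend removed, 0 with the knockout pair as 1 library and 0 to 2 with 1 library left out. That pair fit called 1 gene in all by edgeR, and with the same pair DESeq2 and limma-voom called 3 and 2 of the mitochondrially encoded genes and 2 each of complexes II to V. Other assembly factors called lower, 0 in edgeR, numbered 1 with library size alone, with the trend removed, with DESeq2 and with limma-voom. The cause of these moves was not tested. Fits without a knockout called 3 to 10 genes in all, beside 713.

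With library size alone the median was 0.03 for core and −0.15 for accessory genes, and Ndufa2 turned to −0.10, Ndufa6 to −0.07, Ndufaf2 to −0.09, Ndufb2 to −0.16 and Ndufs8 to −0.10. With the trend removed Ndufa12 and Ndufa8 turned to −0.03, Ndufa2 to −0.17, Ndufa6 to −0.12 and Ndufs8 to −0.18. Ndufb2 was −0.02 with limma-voom and −0.01 with that tool and the pair as 1 library, and −0.10 to 0.24 with 1 library left out. Ndufs8 ran from −0.05 to 0.29 with 1 library left out. None of these genes was called. The median level per length, 97.1 CPM per kb, was 142 with the longest transcript as length. Counting the pair as 1 library with DESeq2 or limma-voom was chosen after seeing the data.

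Replicate numbers share only a number. With a replicate block 683 genes were called, Ndufs1 kept its call (−0.77, adjusted p = 0.0279, edgeR) and mitochondrially encoded complex I genes called higher numbered 1.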
